A study of Mus musculus with 18 samples.

Results

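Serine and glycine feed the folate one-carbon pool, and mouse embryonic stem cells (ESCs) are known for drawing glycine and one-carbon units also from threonine. In mitochondria, threonine dehydrogenase (Tdh) oxidises threonine and glycine C-acetyltransferase (Gcat) splits the product into glycine and acetyl-CoA. The glycine cleavage system then takes glycine apart and passes a one-carbon unit to folate, with Gldc as its decarboxylase and Amt as its aminomethyltransferase. Serine hydroxymethyltransferase interconverts serine and glycine in the cytosol (Shmt1) and in mitochondria (Shmt2), Phgdh, Psat1 and Psph carry out the steps from the glycolytic intermediate 3-phosphoglycerate to serine, and Mthfd2 oxidises the folate-bound one-carbon unit in mitochondria. These 10 genes were taken by name from the 55469 genes with a value in every library. The name Gcat stood for 2 gene identifiers, so that 11 entries matched the 10 names, and the identifier with the higher mean was used.

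Expression was measured by RNA-Seq in 18 libraries of 9 conditions with 2 libraries each. OSKM-ESCs and 2iL-ESCs were a single Tet-On-OSKM/Oct4-GFP ESC line from a cross of (C57BL/6 x 129S4/SvJae)F1 with mice labelled (CBA/CaJ X C57BL/6J)F2, collected at days 18, 25 and 38. They carried 1 inducible polycistronic OSKM transgene (Oct4, Sox2, Klf4 and c-Myc) in the Col1a1 locus and M2rtTA in Rosa26, also in the 2iL controls. OSKM-ESCs had been moved from 2iL medium (N2B27 with the MEK inhibitor PD0325901, the GSK3 inhibitor CHIR99021 and LIF) to N2B27 with doxycycline at 2 µg/mL, which switches the transgene on. OSKM-iPSCs (clone 1 at passage 7 and clone 3 at passage 6) and 2iL-iPSCs (clone 3 at passage 2 and clone 6 at passage 3) were reprogrammed from Tet-On-OSKM mouse embryonic fibroblasts (MEFs) of the strain (C57BL/6 x 129S4/SvJae)F1, the former in N2B27 with doxycycline and the latter in 2iL with doxycycline. OSKM-iPSCs stayed in N2B27 with doxycycline, and passage and medium cannot be told apart between the iPSCs of the 2 media. The sample labels give N2B27 with doxycycline for the daily culture of the 2iL-iPSCs whereas the study's methods give 2iL without it once colonies had been picked. Their titles set the group here. MEF cells were at passage 4 in DMEM with 10% FBS. ESCs and iPSCs were grown on mitomycin-c-treated MEF feeder cells, and nothing states that the 2 libraries of a condition came from separate cultures. The p-values measure the spread between such libraries. For the ESC media over days, they also take in how the medium difference varied between days. The permutation tests take in the spread between days as well.

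Pluripotency markers fitted the labels: 12 of 12 were over 1 FPKM in each of the 16 ESC and iPSC libraries and 1 of 12 in MEF cells. Their level moved with the medium, however: their summed FPKM was 1541 to 2248 in OSKM-ESCs, 3184 to 3598 in 2iL-ESCs, 1259 and 1982 in OSKM-iPSCs and 3171 and 3648 in 2iL-iPSCs. The sum includes Pou5f1 (Oct4) and Sox2, which the transgene also carries, and their FPKM does not separate transgene from endogenous transcripts. Pou5f1 was 699.8 ± 99.1 FPKM (SD, n = 6) in OSKM-ESCs and 703 ± 97.3 in 2iL-ESCs, and Sox2 108 ± 22.1 and 163.5 ± 47.3. Of the 12, 2 were called higher and 8 lower in OSKM-ESCs (median log2 difference -0.998, all genes: 29.5% higher and 24.4% lower). In OSKM-iPSCs 1 was called higher and 5 lower (median -1.07, all genes: 5% and 2.96%). FPKM scales fragments to the length of the transcript and to the mapped fragments of the library. Levels of different genes still depend on the measure. In the first OSKM-ESC library of day 18, Tdh was 124 FPKM and Gcat 40.4, at a mean coverage per base of 197 and 202 reads. The summed FPKM of 14 fibroblast markers was 1994 and 2237 in MEF cells, 21.1 to 38.5 in OSKM-ESCs, 5.02 to 7.17 in 2iL-ESCs, 93.9 and 7.60 in OSKM-iPSC clones 1 and 3, and 6.28 and 4.41 in 2iL-iPSC clones 3 and 6. Between 11303 and 12095 genes per library were over 1 FPKM, and mean coverage per base of the 10 enzymes in the ESC and iPSC libraries was 33.9 to 943 reads. Depth in reads is unknown, since the values hold no counts.

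The enzyme genes were protein-coding and lay on GRCm38 at chr14:63492347-63509092 (Tdh, minus strand), chr15:79030874-79038353 (Gcat, plus), chr19:30098447-30175429 (Gldc, minus), chr9:108296853-108302302 (Amt, plus), chr11:60788104-60811718 (Shmt1, minus), chr10:127517123-127522444 (Shmt2, minus), chr3:98313170-98339990 (Phgdh, minus), chr19:15904678-15947337 (Psat1, minus), chr5:129765558-129787449 (Psph, minus) and chr6:83305691-83325908 (Mthfd2, minus). RefSeq promoters (GRCm38.p6, 250 bases before to 50 after the start site) were at hand for 9 of the 10 and not for Tdh. They were searched on both strands for CACGTG (the E-box), for TGATGNAAN (the C/EBP-ATF element read by ATF4) and for TGACGTCA (the core of the cAMP response element). The E-box was found in the Gcat promoter alone among the 9, and in 7.15% of all 32851 promoters. The elements TGATGNAAN and TGACGTCA were in 3.95% and 1.79% of all promoters and in none of the 9. RefSeq start sites can lie inside the gene spans given above, as for Shmt1, Psat1 and Mthfd2, whose promoters lie wholly inside. Other start sites were not searched. The Gcat stretch is shown with its match in capitals (chr15:79030864-79030893, plus strand). The 60 bases before the RefSeq start sites of Amt (chr9:108296845-108296904, plus) and Phgdh (chr3:98339970-98340029, minus) are shown with CpG in capitals, and both stretches lie partly inside the gene spans. Amt and Phgdh are the enzymes with a promoter at hand whose ESC media did not overlap below.
Gcat: ccctgcccacgtCACGTGacggggagcact
Amt: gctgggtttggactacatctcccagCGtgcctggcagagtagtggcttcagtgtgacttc
Phgdh: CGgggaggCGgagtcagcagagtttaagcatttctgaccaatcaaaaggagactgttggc
The Amt promoter held 7 CpG and the Phgdh promoter 11, against a median of 7 over all promoters, and the other promoters held 10 (Gldc) to 30 (1 of 2 for Psat1).

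**Figure D1:**
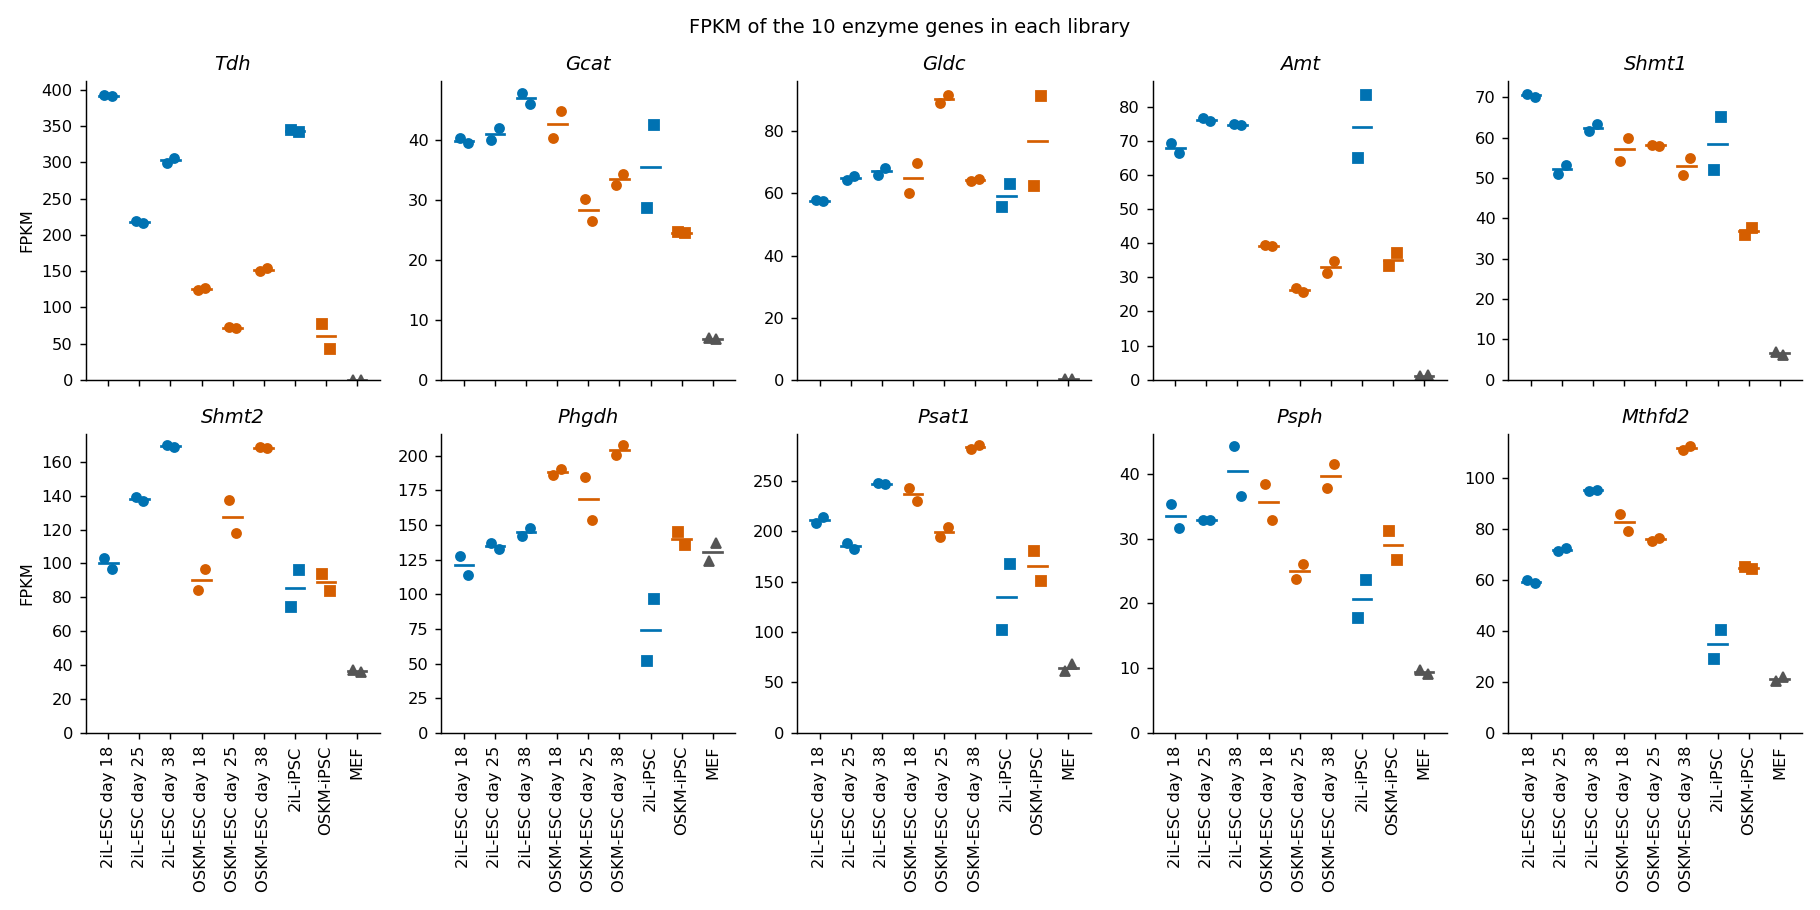
FPKM of the 10 enzyme genes in each of the 18 libraries (y axis, FPKM from 0; x axis, condition). Points are libraries and bars the mean of 2; 2iL is blue, OSKM orange and MEF grey, with circles for ESCs, squares for iPSCs and triangles for MEF cells. Tdh and Amt are lower in each OSKM library than in any 2iL library. Phgdh alone stands in MEF cells at the level of the 2iL-ESCs, below each OSKM-ESC library.

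Across the ESCs, both threonine-degrading enzymes and Amt of the glycine cleavage system were lower in OSKM medium, and Phgdh and Psat1 of serine synthesis and the folate enzyme Mthfd2 were higher. Tdh fell to 0.378 of its 2iL level and Amt to 0.453, while Phgdh rose 1.40-fold, Mthfd2 1.20-fold and Psat1 1.11-fold. In limma's fit with day as a covariate, 3 of the 10 enzymes were higher (Phgdh, Psat1, Mthfd2) and 3 lower (Tdh, Amt, Gcat) at an adjusted p under 0.05. Over all 14016 genes tested, 29.5% were called higher and 24.4% lower, so the share of enzymes called was close to that of all genes. The median of the 10 log2 differences was -0.10, against 0.03 over all genes.

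By FPKM, Tdh was among the most abundant of the enzymes in 2iL medium. It was 392.5 and 391 FPKM at day 18, 219.5 and 216 at day 25 and 298 and 307 at day 38 in 2iL-ESCs. In OSKM-ESCs it was 124 and 126, 73.0 and 71.0, and 150.1 and 154 on the same days. No OSKM library reached the lowest 2iL library, and the day with the lowest level was day 25 in both media. The difference over days was -1.40 ± 0.10 on the log2(FPKM + 1) scale (SE, 6 against 6 libraries, adjusted p = 2.50e-07). By mean FPKM, Tdh stood at place 184 of 11629 genes over 1 FPKM in 2iL-ESCs and at place 569 of 11892 in OSKM-ESCs. A processed pseudogene, Gm13929, matched 1125 bases of its transcript at 97.1% identity and was listed at 0.19 FPKM at most.

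Gcat, the second enzyme of the threonine route, moved much less than Tdh. Its 6 libraries spanned 26.5 to 44.8 FPKM with a median of 33.5 in OSKM-ESCs and 39.5 to 47.8 with a median of 41.1 in 2iL-ESCs, so that the media overlapped. The difference was -0.30 ± 0.10 (SE, adjusted p = 0.0200), and it missed the threshold without the first library of OSKM-ESC day 38 (adjusted p = 0.0514) or of 2iL-ESC day 38 (adjusted p = 0.0507). The ratio of Tdh to Gcat FPKM within a library was 2.43 to 4.61 in OSKM-ESCs and 5.15 to 9.89 in 2iL-ESCs. It differed 2.15-fold between the media. An exact 2-sided permutation test over 6 against 6 libraries gave p = 0.0022, the smallest such a design can give. Adjusted over the 3 ratios examined it was 0.0032, but the ratios were chosen after the values were seen. Tdh by itself already separated the media, so this p-value adds no support. The other Gcat identifier overlaps the same locus over 1132 exonic bases and was above 0 in 3 libraries, with 3.31 FPKM at most (2iL-ESC day 25, the first library).

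The glycine cleavage enzymes did not move together. Amt was 66.3 to 76.5 FPKM with a median of 74.7 in 2iL-ESCs and 25.6 to 39.6 with a median of 33.1 in OSKM-ESCs, and the media did not overlap. Its difference over days was -1.14 ± 0.10 (SE, adjusted p = 1.87e-06). Gldc, its partner at the start of the same reaction cycle, was 57.5 to 68.3 FPKM with a median of 65.0 in 2iL-ESCs and 60.2 to 91.6 with a median of 67.3 in OSKM-ESCs. Its difference of 0.19 ± 0.08 missed the threshold (adjusted p = 0.0608) and passed it with quantile normalization (0.0347) and TPM (0.0244), which are other scalings of the same values. Gldc to Amt was 0.835 to 0.917 in 2iL-ESCs and 1.52 to 3.57 in OSKM-ESCs, a 2.57-fold difference. Its exact permutation p was 0.0022 (adjusted 0.0032). Amt by itself already separated the media when the ratio was chosen, so this p-value adds no support.

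**Figure D2:**
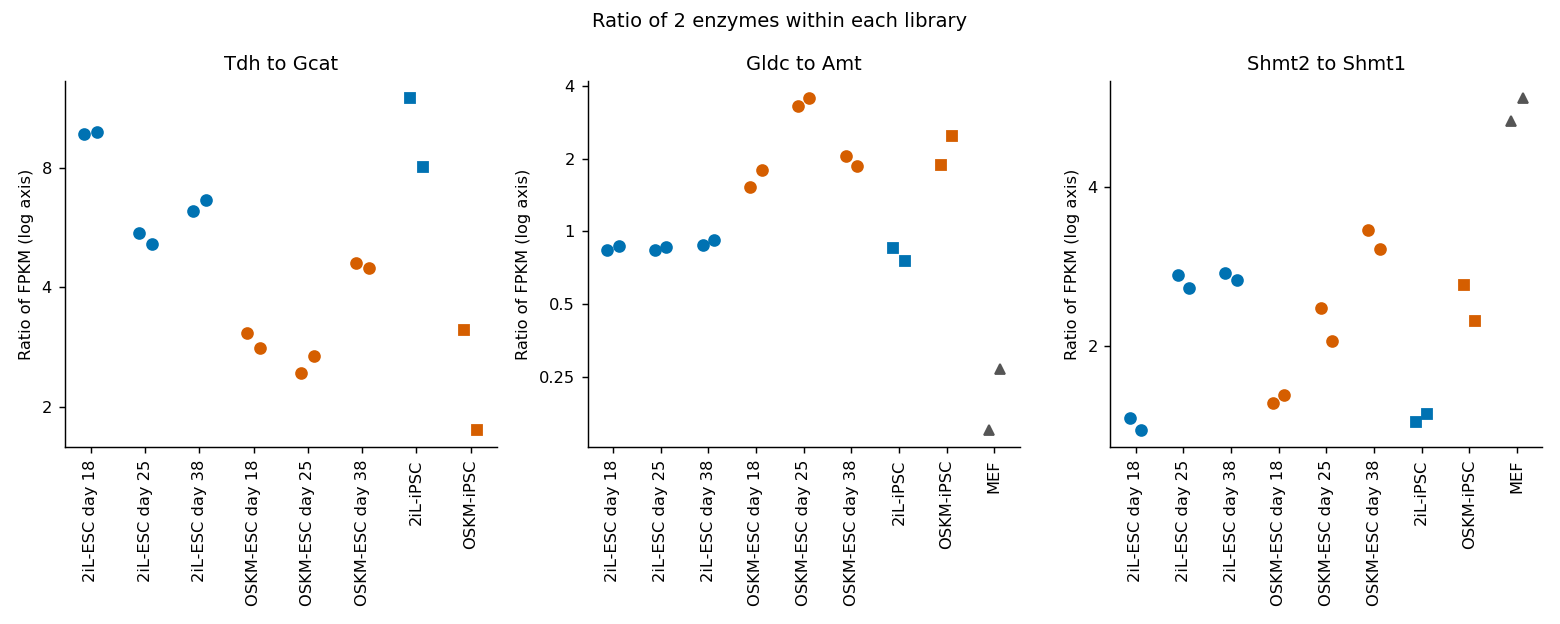
Ratio of FPKM of 2 enzymes within each library (y axis, log scale; x axis, condition; 1 point a library, colours and symbols by medium and cell type, 2iL blue, OSKM orange, MEF grey). Tdh to Gcat is lower and Gldc to Amt higher in each OSKM-ESC library than in any 2iL-ESC library, and Shmt2 to Shmt1 overlaps between the media; MEF cells are left out of the first panel because Tdh is listed at 0 there.

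Of the rest of the glycine cleavage machinery, 5 genes were tested (Gcsh, Dld, Lias, Lipt1, Lipt2), of which 2 were higher in OSKM-ESCs and 2 lower (all genes: 29.5% and 24.4%). Gcsh, the lipoyl-carrying H protein, was 71.3 ± 7.06 FPKM (SD, n = 6) in OSKM-ESCs and 115 ± 22.3 in 2iL-ESCs, a log2 difference of -0.67 ± 0.08 (SE, adjusted p = 3.46e-05). Dld, the dihydrolipoamide dehydrogenase that this system shares with other mitochondrial complexes, was higher by 0.50 ± 0.08 (adjusted p = 3.57e-04). Among the genes that attach lipoate, Lipt2 was higher by 0.38 and Lipt1 lower by 0.41 on the log2 scale. Of the 4 protein components of the system, Amt and Gcsh were thus lower, Dld higher, and Gldc not called.

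The 2 serine hydroxymethyltransferases were not called over days. Shmt1 was 50.9 to 59.9 FPKM with a median of 56.4 in OSKM-ESCs and 51.0 to 70.8 with a median of 62.5 in 2iL-ESCs, and the difference of -0.13 had an interval of -0.29 to 0.04. Shmt2 was 84.3 to 169 FPKM with a median of 127.6 in OSKM-ESCs and 96.9 to 169.6 with a median of 138 in 2iL-ESCs, and its difference of -0.09 had an interval of -0.22 to 0.04. The ratio of Shmt2 to Shmt1, pooled over days, did not pass between the media (1.03-fold, exact permutation p = 0.890, adjusted 0.890), a test that ignores the day. On single days its libraries were apart in opposite directions, with 1.55 and 1.61 in OSKM-ESCs against 1.46 and 1.38 in 2iL-ESCs at day 18, 2.36 and 2.04 against 2.73 and 2.57 at day 25, and 3.32 and 3.05 against 2.75 and 2.66 at day 38. The daily differences of this ratio were not tested. Unstranded libraries cannot separate Shmt1 from Smcr8, which shares 184 exonic bases on the other strand and reached 12.8 FPKM.

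Serine synthesis began with the enzyme that differed most between the media among its 3. Phgdh, phosphoglycerate dehydrogenase, was 186 and 191 FPKM at day 18, 184 and 153 at day 25 and 200.4 and 208 at day 38 in OSKM-ESCs. In 2iL-ESCs it was 128 and 114, 137 and 133, and 142 and 147.5. All 6 OSKM libraries were above the highest 2iL library, and the difference over days was 0.48 ± 0.07 (SE, adjusted p = 8.98e-05). Psat1, phosphoserine aminotransferase, was 194.7 to 285 FPKM in OSKM-ESCs and 182 to 248 in 2iL-ESCs, with a difference of 0.15 ± 0.05 (adjusted p = 0.0118). That call was lost in a single fit of all 9 conditions (adjusted p = 0.197).

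Psph, the phosphatase that ends serine synthesis, was 23.8 to 41.5 FPKM with a median of 35.4 in OSKM-ESCs and 31.7 to 44.4 with a median of 34.1 in 2iL-ESCs. Its difference of -0.11 had an interval of -0.30 to 0.09. Psph shares 452 exonic bases on the opposite strand with Cct6a, a chaperonin subunit at 250.1 to 421 FPKM in the ESC and iPSC libraries, and reads there cannot be told apart. Phgdh has 9 processed pseudogenes of at least 95% identity over 200 bases or more, the most abundant of them Gm7901 at 6.83 FPKM at most, whereas Gcat, Gldc, Amt, Shmt1, Shmt2, Psat1 and Mthfd2 had no such match outside their own locus. Mthfd2 was 75.3 to 112 FPKM in OSKM-ESCs and 58.6 to 95 in 2iL-ESCs, and it was higher by 0.26 ± 0.06 (SE, adjusted p = 0.00468).

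In the exact 2-sided permutation test of each enzyme over 6 against 6 libraries, which ignores the day, Tdh, Amt and Phgdh gave p = 0.0022, Gcat 0.0303, and the other 6 values were 0.139 (Gldc), 0.141 (Mthfd2), 0.167 (Shmt1), 0.225 (Psat1), 0.481 (Psph) and 0.628 (Shmt2). The test takes each library as independent, as do the ratio tests above. Nothing states that the 2 libraries of a condition came from separate cultures, and each day was 1 collection. These p-values may therefore be too small. Libraries of the media did not overlap for 3 of the 10 enzymes: Phgdh lay above and Tdh and Amt below. Over all genes tested, 14.6% lay wholly above and 12% wholly below. The fibroblast marker sum was higher in OSKM-ESCs, at 0.996% to 1.82% of the MEF mean, than in 2iL-ESCs, at 0.237% to 0.339%. Phgdh was 124 and 137 FPKM in MEF cells themselves, below each OSKM-ESC library. The part of feeder cells in the differences was not tested. The summed FPKM of the 12 pluripotency markers was lower in each OSKM-ESC library than in every 2iL-ESC library. Of these markers, 8 were called lower and 2 higher (all genes: 24.4% and 29.5%), and their part was not tested either. In bulk libraries, fewer cells that express a gene and less RNA per cell cannot be told apart.

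**Figure D3:**
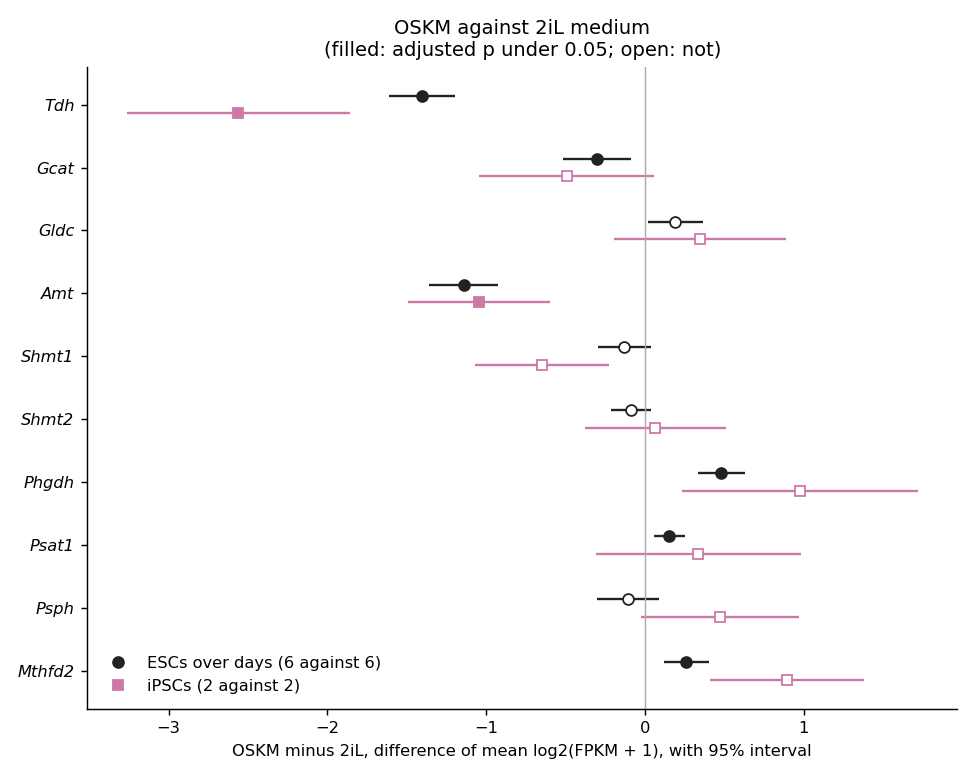
OSKM minus 2iL difference of each enzyme (x axis, mean log2(FPKM + 1), with 95% intervals from limma) in ESCs over days (black circles, 6 against 6 libraries) and in iPSCs (pink squares, 2 against 2). Filled symbols passed an adjusted p of 0.05: 6 enzymes in ESCs, and Tdh and Amt in iPSCs.

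Among the iPSCs, Tdh and Amt were again lower in OSKM medium, and the remaining 8 enzymes were not called. Tdh was 77.0 and 42.7 FPKM in OSKM-iPSC clones 1 and 3 and 345 and 342 in 2iL-iPSC clones 3 and 6, the widest gap of any enzyme. Its difference was -2.56 ± 0.28 (SE, 2 against 2 clones, adjusted p = 0.0146). Amt was 33.3 and 37.0 FPKM in the OSKM clones and 64.8 and 83.3 in the 2iL clones, a difference of -1.04 ± 0.18 (adjusted p = 0.0327). Over all 13653 genes tested, 5% were called higher and 2.96% lower. Of all calls 62.8% were higher, and 49.4% with quantile normalization. An exact permutation test of 2 against 2 cannot give a p below 0.33.

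These calls rest on few clones. Without OSKM-iPSC clone 1, the clone with the raised fibroblast markers, Tdh was lower by 2.98 on the log2 scale (adjusted p = 0.0187) and Amt by 0.97 (adjusted p = 0.0739). Without clone 3 Amt also missed the threshold (adjusted p = 0.0591), with a difference of -1.12. Without 2iL-iPSC clone 3 or clone 6 no gene at all passed in limma's fit (0 of 13387 and 0 of 13493), which says nothing of these enzymes, and the differences were -2.55 and -2.57 for Tdh and -1.22 and -0.87 for Amt. Leaving a clone out leaves 1 in its group, which is then assumed to vary like the other group.

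The values of 2iL-iPSC clone 3 were the lowest among all ESC and iPSC libraries for Phgdh (51.7 FPKM), Psat1 (102), Psph (17.8), Shmt2 (74.3) and Mthfd2 (29.1). Phgdh was 145 and 135.5 FPKM in the OSKM clones and 51.7 and 96.5 in the 2iL clones, and Mthfd2 was 65.0 and 64.1 against 29.1 and 40.4. The differences of 0.98 ± 0.30 for Phgdh (SE, adjusted p = 0.102) and 0.89 ± 0.19 for Mthfd2 (adjusted p = 0.0524) did not pass. Shmt1, at 35.9 and 37.7 FPKM against 52.0 and 65.1, gave -0.65 ± 0.17 (adjusted p = 0.0743). In a single fit of all 9 conditions, which takes the spread from all libraries, 7 of the 10 enzymes were called. Those added were Gcat, Shmt1, Phgdh, Psph and Mthfd2. Calls rose over all genes too, to 6289 of 15567 from 1087 of 13653 in the main fit.

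Whether the medium difference was the same in both cell types was tested as an interaction. Tdh differed more in iPSCs than in ESCs, by a further -1.16 ± 0.22 (SE, adjusted p = 0.00588), and Shmt1 by a further -0.52 ± 0.12 (adjusted p = 0.0139). For Mthfd2 the OSKM minus 2iL difference was larger in iPSCs by 0.63 ± 0.14 (adjusted p = 0.0113) and for Psph by 0.58 ± 0.17 (adjusted p = 0.0392). The call for Psph was lost without filter, with median-ratio or quantile scaling and without the trend, with adjusted p between 0.0503 and 0.0735, and without any 1 of 11 of the 16 libraries (0.0503 to 0.155), among them 2iL-iPSC clone 3. Without 2iL-iPSC clone 6 that of Shmt1 was lost (adjusted p = 0.0510). Without OSKM-iPSC clone 3 the value of Tdh was -0.74 and without 2iL-iPSC clone 3 that of Mthfd2 was 0.40, both still called. Amt gave 0.10, with an interval of -0.18 to 0.37. Over all 14621 genes tested, 8.67% were called higher and 5.55% lower, and of these calls 61% were higher, or 48% with quantile normalization.

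**Figure D4:**
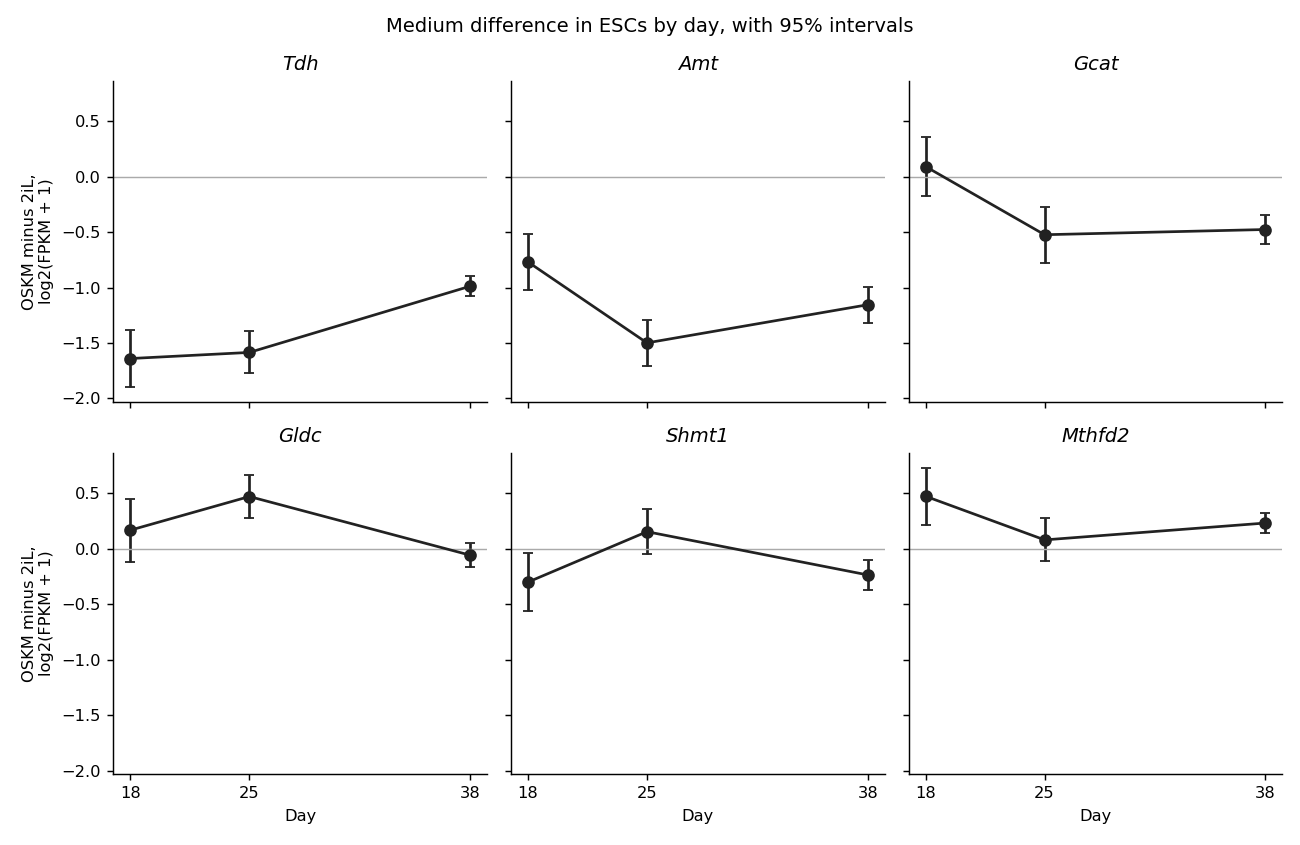
OSKM minus 2iL difference in ESCs (y axis, mean log2(FPKM + 1), with 95% intervals from limma) at days 18, 25 and 38 (x axis) for the 6 enzymes whose difference varied with the day; each point compares 2 against 2 libraries. Tdh is nearest to 0 at day 38, and Amt, Gcat and Gldc are farthest from 0 at day 25.

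The size of the medium difference changed with the day for 6 of the 10 enzymes (Tdh, Gcat, Gldc, Amt, Shmt1 and Mthfd2), and such an interaction was called for 37.9% of the genes tested. The difference of Tdh was -1.64 at day 18, -1.59 at day 25 and -0.99 at day 38. That of Amt was -0.77, -1.50 and -1.16. Gcat was not called at day 18 (0.09) and lower at days 25 (-0.52) and 38 (-0.48). Gldc was higher at day 25 alone, by 0.47 ± 0.08 (SE, adjusted p = 0.00627), when it stood at 89.3 and 91.6 FPKM in OSKM-ESCs and at 64.4 and 65.7 in 2iL-ESCs. Shmt1 was -0.30 (adjusted p = 0.0657), 0.15 (0.174) and -0.24 (0.0140), and Mthfd2 0.47 (0.0131), 0.08 (0.434) and 0.23 (0.00371). For Shmt2, Phgdh, Psat1 and Psph the interaction was not called, with adjusted p of 0.602, 0.161, 0.660 and 0.0830. In a single fit of all 9 conditions Amt alone of the 10 kept the interaction, as did 3086 of all 15567 genes tested.

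On single days, 2 enzymes were higher and 2 lower at day 18 (all genes: 25.7% and 17.7%), 1 higher and 4 lower at day 25 (20.7% and 25.3%), and 3 higher and 4 lower at day 38 (34.6% and 25.2%). Tdh and Amt were called lower on each day. Phgdh was higher at day 18 (0.64) and at day 38 (0.49) and gave 0.31 at day 25 (adjusted p = 0.0658). Psph was lower at day 25 alone, by 0.39 on the log2 scale (adjusted p = 0.0211), at 23.8 and 26.1 FPKM against 32.9 in each 2iL library. Leaving out either 2iL library of day 25 ended the calls of Gcat, Gldc and Psph there, and leaving out the second 2iL library of day 18 those of Phgdh and Mthfd2. Within a medium, 8 of the 10 enzymes differed between days in OSKM-ESCs (38.6% of all genes) and 8 in 2iL-ESCs (50.8% of all genes). Each day was 1 collection, so day and collection cannot be told apart. Shmt2 stood at 90.4 ± 8.54, 128 ± 13.9 and 168 ± 0.58 FPKM (SD, n = 2) at days 18, 25 and 38 in OSKM-ESCs and at 100.1 ± 4.50, 138 ± 1.47 and 169 ± 0.78 in 2iL-ESCs, and the days were apart in both media (adjusted p = 0.00457 and 5.27e-04). Shmt1 and Phgdh were not called in OSKM-ESCs, nor Amt and Psph in 2iL-ESCs. Without either OSKM-ESC library of day 38, 2 enzymes (Tdh and Shmt2) were still called in OSKM-ESCs, and without either 2iL library of day 25 or the first of day 38, 5 in 2iL-ESCs.

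Against MEF cells, nearly all of the enzymes were more abundant in iPSCs. MEF cells were in DMEM with 10% FBS and iPSCs in N2B27-based media on feeder cells. Cell type, medium and passage therefore cannot be told apart here. Tdh was listed at 0 in both MEF libraries, so no fold is given. Gldc was 0.15 and 0.39 FPKM and Amt 0.98 and 1.46 in MEF cells, against 62.4 and 91.5 and 33.3 and 37.0 in OSKM-iPSCs. Gcat (6.90 and 6.84 FPKM), Shmt1 (6.99 and 6.07), Psph (9.74 and 9.13) and Mthfd2 (20.2 and 21.9) were present in MEF cells at lower levels, as were Shmt2 (37.3 and 35.9) and Psat1 (61.5 and 68.2). In OSKM-iPSCs 9 of the 10 were called higher and 0 lower (34.0% and 26.4% of all genes), with log2 differences of 1.25 (Shmt2) to 5.92 (Gldc) against a median over all genes of 0.19, which was 0.02 with median-ratio scaling.

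Phgdh was the exception, at 124 and 137 FPKM in MEF cells. OSKM-iPSCs, at 145 and 135.5 FPKM, differed from MEF cells by 0.11 with an interval of -0.18 to 0.39, and the sign turned with median-ratio scaling (-0.09) and TPM (-0.002). In 2iL-iPSCs 9 enzymes were called higher (40.6% of all genes) and Phgdh lower by 0.87 on the log2 scale (37.4% of all genes, adjusted p = 0.0445), a call lost without 2iL-iPSC clone 3 (-0.43, adjusted p = 0.0612), with a pseudocount of 0.1 (0.0538) and without filter (0.134). Without either MEF library no gene at all passed in the OSKM-iPSC comparison (0 of 14074 and 0 of 14069 tested by limma), so that the fit says nothing of single enzymes, and the differences stayed close (Gcat 1.70 and 1.69, Gldc 5.78 and 6.06). In the 2iL-iPSC comparison the differences were then -0.94 and -0.80 for Phgdh and 1.21 and 1.16 for Shmt2.

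Genes around these enzymes were counted over lists of neighbouring pathways. Among folate one-carbon enzymes, 3 of 13 tested were higher and 2 lower in OSKM-ESCs, both below the shares of all genes (29.5% and 24.4%). Mthfd2l, a mitochondrial relative of Mthfd2, was 7.62 ± 1.65 FPKM (SD, n = 6) in OSKM-ESCs and 0.44 ± 0.19 in 2iL-ESCs, with a log2 difference of 2.56 ± 0.09 (SE, adjusted p = 2.19e-09). It was 5.32 and 1.41 FPKM in the OSKM-iPSC clones, 0.79 and 0.83 in the 2iL-iPSC clones and 7.38 and 6.22 in MEF cells. The fibroblast marker sum of OSKM-ESCs was 0.996% to 1.82% of the MEF mean, and the part of feeder cells was not tested. The iPSC difference of 1.11 was not called (adjusted p = 0.200). Mthfd1l, the mitochondrial formate-releasing synthetase, was higher by 0.47 and Slc19a1, the reduced folate carrier, by 0.64, while Fpgs, which adds glutamate to folates, was lower by 0.45 and Aldh1l1 by 1.05 on the log2 scale. The cytosolic trifunctional Mthfd1 (-0.01) and Tyms (-0.09) were not called.

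In the methionine cycle and transsulfuration, 1 of 10 genes was higher and 2 lower in OSKM-ESCs, again below 29.5% and 24.4% of all genes. Cth, cystathionine gamma-lyase, was 88.6 ± 19.9 FPKM (SD, n = 6) against 47.4 ± 7.91, a log2 difference of 0.88 ± 0.16 (SE, adjusted p = 4.89e-04). In iPSCs Cth was 94.9 FPKM in OSKM clone 1 and 33.7 in OSKM clone 3, against 41.25 and 44.1 in the 2iL clones. No gene of this list was called there. Bhmt was lower in OSKM-ESCs by 0.67 at under 1 FPKM on average in both media. Of the genes that use serine, glycine or threonine, 1 of 12 was higher and 2 lower, also below those shares. Gss, glutathione synthetase, which joins glycine to gamma-glutamylcysteine, was 7.92 ± 1.09 FPKM against 36.0 ± 8.72 and lower by 2.03 ± 0.14 (adjusted p = 3.34e-07). It was also lower in OSKM-iPSCs (10.9 and 21.0 FPKM against 42.8 and 43.5, -1.45 ± 0.31, adjusted p = 0.0494). Gatm, which makes guanidinoacetate from glycine, was higher by 1.20 at a low level, 1.69 ± 0.24 against 0.17 ± 0.09 FPKM.

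Of the amino acid transporters, 6 of 11 tested were higher in OSKM-ESCs and 2 lower (all genes: 29.5% and 24.4%), with a median log2 difference of 0.33 against 0.03 over all genes. Slc38a1 (48.6 ± 6.75 against 29.1 ± 3.63 FPKM, SD, n = 6) and Slc38a2 (90.7 ± 9.51 against 69.5 ± 9.18), which carry small neutral amino acids, were higher by 0.72 and 0.38 on the log2 scale. The cystine carrier Slc7a11 was higher by 0.89 at a low level (1.19 ± 0.19 against 0.18 ± 0.15 FPKM) and passed the filter through OSKM-ESCs alone. The glycine carriers Slc6a9 and Slc25a38 were higher by 0.77 and 0.33 and Slc1a4 by 0.56, while Slc1a5 and Slc3a2 were lower by 0.40 and 0.15. In iPSCs 1 of 11 was called, Slc7a5, which was higher (0.88, adjusted p = 0.0312; all genes: 5% higher). ATF4 and amino acid response genes were split, 4 higher and 4 lower of 16, close to the shares of all genes. Atf4 itself differed by 0.01 (adjusted p = 0.948), Atf5 was higher by 1.05 and the tRNA synthetase gene Wars by 0.66, and Asns and Aars were lower by 0.62 and 0.63. In iPSCs 2 of 16 were called, both higher, Cebpb (2.48) and Chac1 (2.02), where 5% of all genes were higher and 2.96% lower.

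**Figure D5:**
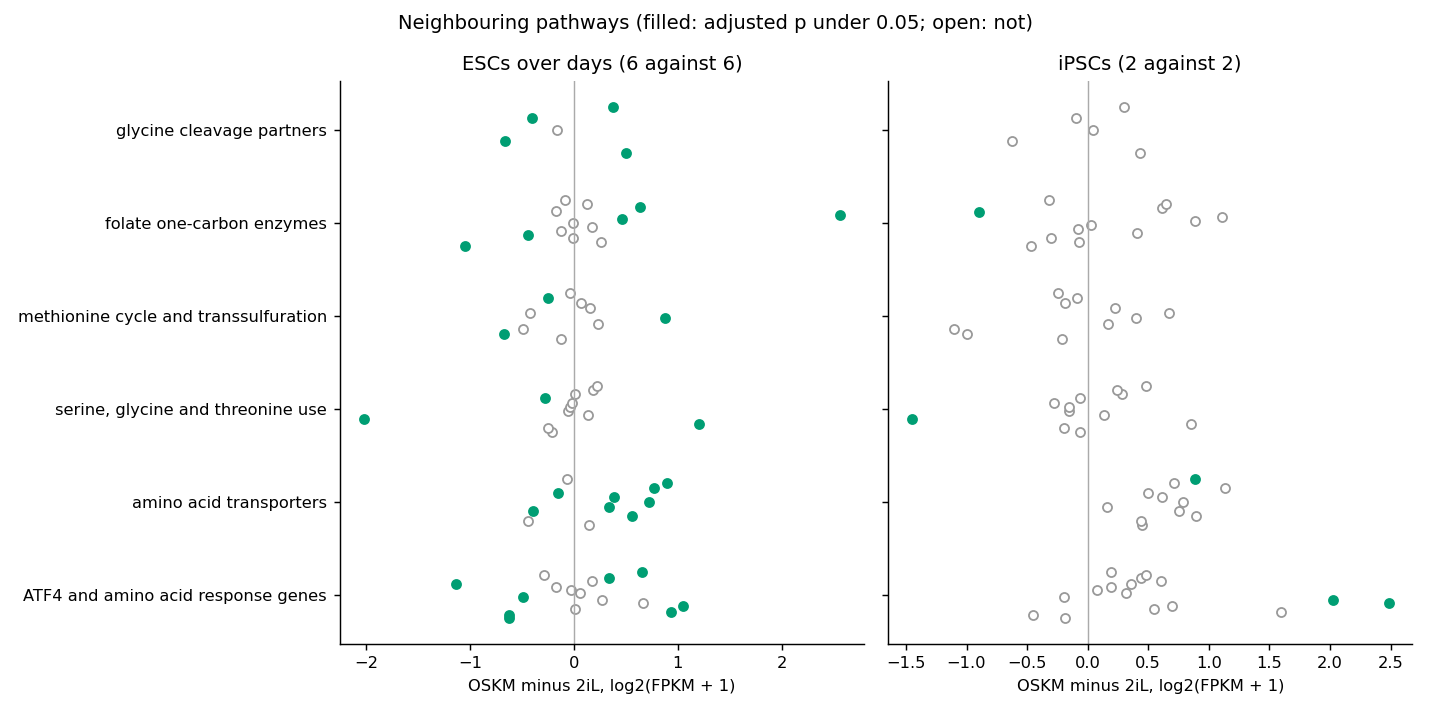
OSKM minus 2iL difference of each tested gene in 6 neighbouring lists (x axis, mean log2(FPKM + 1); y axis, list) in ESCs over days (left, 6 against 6 libraries) and in iPSCs (right, 2 against 2); the axes differ in range. Green filled points passed an adjusted p of 0.05: of the transporters 8 in ESCs and 1 in iPSCs.

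The genes whose pattern over the 18 libraries was most like that of each enzyme were read from Pearson's r of log2(FPKM + 1) among genes over 10 FPKM in at least 1 library. These values are a description, and the contrast of MEF cells with all other cells enters each of them. Psat1 and Psph were each among the 3 genes most like the other (r = 0.96), and Psat1 was the gene most like Mthfd2 (0.96), followed by the mitochondrial serine carrier Sfxn1 (0.95). Leucyl-tRNA synthetase, Lars, was among the 3 for Psat1 (0.96) and the first for Psph (0.96), Iars the first for Shmt2 (0.98) and Sars the second for Phgdh (0.89). Gldc was most like Mthfd1 (0.99) and Shmt1 had Ahcy among its 3 (0.99). The 3 genes most like Tdh were Brca1, Sh3gl2 and Actl6a (0.99 each), and Brca1 was also the second for Amt (0.99). Genes outside these pathways came first for Psat1 (Lhpp, 0.98), Gcat (Zfp7, 0.98), Amt (N4bp3, 0.99) and Shmt1 (Snrnp40, 0.99). Phgdh had the lowest first value of the 10, 0.95 with Pitrm1.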

How the data were processed

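RNA was extracted with TRIzol and libraries were made with an unstranded poly-A kit. The authors aligned reads to GRCm38/mm10 with STAR 2.7.1a, and quantified uniquely mapped ones by StringTie 2.0. Its deposited FPKM was analysed without rescaling. The deposited coverage (a signal, mean reads over each base of a gene) served to describe precision. The authors' Cuffdiff 2.2.1 comparisons need aligned reads and were not repeated. U2surp and St13, with a failed value in 1 library each, were left out and 11 repeated identifiers summed.

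Differences in log2(FPKM + 1) were tested by limma 3.58.1 in R 4.3.3 (lmFit, eBayes, trend on) for genes over 1 FPKM in at least 1 library compared, with Benjamini-Hochberg adjusted p-values over all genes tested and a threshold of 0.05. The pseudocount understates folds of low genes. All 10 enzymes passed the filter in each comparison. A gene can pass it through the group where it is high alone. This was so over days for Mthfd2l, Gatm and Slc7a11, at 0.44, 0.17 and 0.18 FPKM on average in 2iL-ESCs. It was also so for Tdh and Gldc against MEF cells. The procedure was tested on simulated data. Single genes and within-library ratios were tested by exact 2-sided permutation (Python 3.11.15, numpy 2.4.6). Near copies were sought with blastn 2.17.0 in GENCODE M21 transcripts, whose gene coordinates equal those in the files. Conditions came from the sample labels. No sequencing batch is given in the sources used here.

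The enzymes, the lists and the tests were chosen with earlier results of these data known. In each list, up to 4 genes were to be named, those with the largest differences over days among called genes whose 6 OSKM-ESC libraries did not overlap the 6 2iL-ESC libraries. These were Gcsh, Lipt2, Mthfd2l, Fpgs, Cth, Bhmt, Gss, Gatm, Slc7a11, Slc38a1, Slc38a2, Atf5, Wars and Aars, and other genes of the lists were named after their values were seen. For likeness, the 3 genes with the highest r per enzyme were determined and some are named. The alternatives were other pseudocounts, filters and scalings, TPM, no trend, a single fit, a replicate block and leaving out each library. Summing the Gcat identifiers and the ratios were added after the data were seen. Some results of the folate list are not reported here.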

Additional observations from a re-analysis of the deposited data

Results flagged for a closer look

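For 6 enzymes the medium difference in ESCs depended on the day in a test of the interaction (limma, adjusted p over all genes tested, 2 libraries per day and medium). The adjusted p was 3.90e-04 for Tdh, whose difference was nearest to 0 at day 38, and 0.00131 for Amt, which was farthest from 0 at day 25. It was 0.00452 for Gcat, which was not called at day 18 and lower in OSKM-ESCs at days 25 and 38, and 0.0103 for Gldc, which was higher in OSKM-ESCs at day 25. It was 0.0112 for Shmt1, whose difference was positive at day 25 and negative on the other days, and 0.0152 for Mthfd2, whose difference was positive on each day. Of all genes tested, 37.9% had such an interaction.

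For 4 enzymes the medium difference depended on the cell type, ESC or iPSC, with an adjusted p of 0.00588 for Tdh (more negative in iPSCs by 1.16), 0.0139 for Shmt1 (more negative by 0.52), 0.0113 for Mthfd2 (0.63 higher) and 0.0392 for Psph (0.58 higher). The iPSCs were 2 clones per medium at different passages, so that cell type, passage and clone cannot be told apart here. Without 2iL-iPSC clone 6 the interaction of Shmt1 was -0.36 (adjusted p = 0.0510), and without 2iL-iPSC clone 3 that of Psph was 0.39 (adjusted p = 0.155).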

How the results depend on the processing

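For single enzymes, 1097 of 1218 log2 differences under the alternatives kept their direction and their side of the threshold, 81 lost the call, 22 gained one and 18 changed sign. Over days in ESCs, 5 to 7 enzymes were called when each library was left out (6 with all), 5 with the replicate block and 5 in a single fit. Same-numbered libraries correlated at 0.20, 0.22 and -0.03 on days 18, 25 and 38 in their deviations over 9833 genes, so the numbers were not taken to pair them. With the replicate block the interaction of medium and cell type was called for 2 enzymes (4 without it), losing Shmt1 and Psph, Gcat over days missed the threshold (adjusted p = 0.0560), and Shmt1 at day 18 (0.0488) and Phgdh at day 25 (0.0386) passed it.

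In iPSCs, where 2 enzymes were called, the count was 0 without filter, 1 without the trend, 7 in a single fit and 0 to 1 without a clone. The single fit called 3 at day 38 (7 otherwise), 1 for the interaction of medium and day (6 otherwise) and 4 for days within 2iL-ESCs (8 otherwise, 5 without the trend). Without a library, 2 to 4 enzymes were called at day 18 (4 with all), 2 to 6 at day 25 (5), 6 to 7 at day 38 (7), 5 to 7 for the interaction with day (6), 3 to 5 for that with cell type (4), 2 to 8 for days in OSKM-ESCs (8), 5 to 9 for days in 2iL-ESCs (8), 0 to 9 for OSKM-iPSCs against MEF cells (9) and 5 to 10 for 2iL-iPSCs against MEF cells (10). In fits of 2 against 2, a lone library is assumed to vary like the other group.

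Differences that changed sign had not been called. With median-ratio scaling they were Shmt2 in iPSCs (-0.006) and Phgdh in OSKM-iPSCs against MEF cells (-0.093). With TPM they were Phgdh there (-0.002) and, at day 38, Gldc (0.011), Shmt2 (0.065) and Psph (0.045), and with quantile normalization Shmt2 at day 38 (0.10, adjusted p = 0.0465). Without a library, Shmt2 in iPSCs ranged from -0.117 (another value was -0.010) to 0.252, Psat1 in iPSCs from -0.018 to 0.693, Psph from -0.022 to 0.193 at day 18 and from -0.16 to 0.111 at day 38 (another value was 0.041), and the interaction with cell type from -0.117 to 0.427 for Gldc, -0.082 to 0.276 for Amt, -0.027 to 0.342 for Shmt2, -0.171 to 0.539 for Psat1 and -0.466 to 0.088 for Gcat. The cause was not tested.

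Counts over all genes also moved. In iPSCs 1087 genes were called, 0 without filter, 6289 in a single fit and 0 to 2076 without a clone. At day 18 there were 5546, 3633 with a filter of 5 FPKM and 2642 to 4171 without a library, and at day 25 6030 and 2864 to 6792. The single fit called 3086 genes for the interaction with day (5319 otherwise) and 4122 for days within 2iL-ESCs (6465). The replicate block called 1044 for the interaction with cell type (2079, and 1406 to 3656 without a library), and days within OSKM-ESCs gave 3316 without filter (5050, and 1972 to 5608 without a library). Days within 2iL-ESCs gave 4157 to 6170 without a library. Against MEF cells, OSKM-iPSCs had 8572 called genes and 2iL-iPSCs 11093, and without a library 0 to 9775 and 7190 to 10144. Depth in reads is unknown and 2 libraries per condition limit each single-day comparison.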

Other observations

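The 2iL-iPSC clones differed from each other in several of the enzymes. Phgdh was 51.7 and 96.5 FPKM, Psat1 102 and 167 and Mthfd2 29.1 and 40.4 in clones 3 and 6, while Tdh was 345 and 342. The replicate correlation over genes, a description, was 0.991 for these clones, 0.979 for the OSKM-iPSC clones and 0.994 to 0.996 for the ESC conditions. Cct6a, which shares exonic bases with Psph, was 348 and 349.8 FPKM in the same clones while Psph was 17.8 and 23.6.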
